A study of Mus musculus with 6 samples.

Results

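The NF-kB family genes described here are 10 of the 54532 genes in each deposited table: the 5 genes of the NF-kB subunits (Nfkb1, Nfkb2, Rel, Rela and Relb) and 5 genes of their IkB partners (Nfkbia, Nfkbib, Nfkbie, Nfkbid and Nfkbiz). They were chosen by gene name, and each name stood on 1 row of the tables. RNA sequencing was performed on total RNA of bone-marrow-derived macrophages of C57BL/6 mice, which are cultured phagocytes derived from marrow precursors. The cells carried, per the labels, either a small interfering RNA against Cxcr4 (siCXCR4) or a negative-control siRNA (siNC). Every culture of both groups had been given lipopolysaccharide (LPS), a component of bacterial cell walls, at 100 ng/ml for 12 hours, so the samples used here hold no unstimulated group and the response of these genes to LPS itself cannot be read from them. Each group has 3 samples per the labels. The table of siNC replicate 3 repeated siNC replicate 2 as whole reads in all 19072 genes with reads, a difference smaller than sampling noise, and both were counted as 1 sample. The comparison therefore rests on 2 siNC and 3 siCXCR4 libraries. The labels do not say that replicates are separate animals or cultures, so a p-value here measures the spread between samples, which may be technical in origin.

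NF-kB proteins are dimers of Rel-domain subunits that wait in the cytoplasm, bound to inhibitors of the IkB family. When LPS engages the receptor TLR4, the IkB kinase marks the cytoplasmic inhibitors for destruction, and the freed dimers enter the nucleus and bind short DNA elements called kB sites in the promoters of inflammatory genes. Several of the genes switched on in this way encode the inhibitors and subunits themselves, a feedback for which Nfkbia is the best known example. The nuclear IkB proteins are another branch: they bind NF-kB dimers on DNA and tune groups of target genes in place of holding dimers outside the nucleus.

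The kB element is the sequence that ties this family to its own regulation, so the stretches of promoter that hold one are shown here. RefSeq windows (GRCm38.p6, from 250 bases before to 50 bases after a transcription start) were matched for 7 of the 10 genes, with 11 windows in all. These are 120-base stretches that end just before the start, 5′ to 3′ on the strand of the gene, with matches to the NF-kB consensus in capitals.
Nfkbia, minus strand, chr12:55492648-55492767: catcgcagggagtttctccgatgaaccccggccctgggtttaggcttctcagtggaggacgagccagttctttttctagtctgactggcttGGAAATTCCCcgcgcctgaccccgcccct
Nfkb2, plus strand, chr19:46304617-46304736: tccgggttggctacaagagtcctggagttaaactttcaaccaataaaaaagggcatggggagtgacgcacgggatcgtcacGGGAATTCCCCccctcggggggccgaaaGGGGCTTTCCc
Rel, minus strand, chr11:23770970-23771089: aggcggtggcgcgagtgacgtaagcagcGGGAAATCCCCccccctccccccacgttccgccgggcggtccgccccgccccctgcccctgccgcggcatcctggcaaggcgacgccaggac
Nfkbie, plus strand, chr17:45555580-45555699: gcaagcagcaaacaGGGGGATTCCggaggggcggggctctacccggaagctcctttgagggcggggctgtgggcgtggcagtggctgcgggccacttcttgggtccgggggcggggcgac
The consensus was searched on both strands, and overlapping matches were joined in 1 run of capitals. It was found in 5 of the 7 genes with a window and in 7 of the 11 windows, where 9.55% of all 27025 genes and 8.46% of all 32851 windows held it. The 5 genes were the 4 shown and Nfkbid, whose matches GGGACTTCCC and GGAATTCCCC lay in a window around an internal start, the first of them beginning 226 bases before it. Nfkb2 also carried GGGACTTTCC in both of its windows at downstream starts, which overlap there and share that match. Rela and Nfkbib had no match in these windows. A looser pattern, GGG and CC with any 5 letters between them, which contains the consensus, was in 6 of the 7 genes, but also in 53.5% of all genes. A match describes letters only, and binding was not measured in these samples.

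Levels are given as FPKM, reads divided by gene length in kilobases and by the library's size, as mean ± SD (n = 2 siNC and n = 3 siCXCR4 libraries). Differences are given as siCXCR4 minus siNC in log2(FPKM + 1), called log2 fold changes, and were tested with limma and adjusted by Benjamini-Hochberg over all 9943 genes whose mean FPKM was at least 1. All 10 genes passed that filter, on 213 to 15275 reads per gene and library. The libraries held 18890751 to 21780840 reads in genes. The macrophage identity of the cells showed in their defining transcripts: all 10 macrophage markers averaged at least 1 FPKM, and Lyz2 reached 2389 ± 115 FPKM (siNC) and 2350 ± 155 FPKM (siCXCR4). The T and NK cell markers summed to at most 0.854 FPKM in any library. Summed neutrophil markers, of which 4 of 8 averaged at least 1 FPKM and Retnlg was at 0, ran from 103 to 106 FPKM in siNC and from 81.8 to 96.7 FPKM in siCXCR4. Their part in the results was not tested. Dendritic markers summed to 4.02 to 4.94 FPKM over all libraries and stromal markers to 10.7 to 14.5 FPKM. The dendritic markers Cd209a and Siglech were at 0 in all 5 libraries. In bulk RNA, fewer cells of a type and less RNA per cell cannot be told apart.

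The siRNA target was lower in every siCXCR4 library. Cxcr4, the receptor for the chemokine CXCL12, stood at 41.3 and 42.1 FPKM in siNC and at 31.1, 36.2 and 32.7 FPKM in siCXCR4, a log2 fold change of -0.32 (SE 0.0704), with an adjusted p of 0.457 by limma and 0.0637 by edgeR's quasi-likelihood test on whole reads. With 2 libraries against 3, an exact permutation test (two-sided, as the doubled smaller tail) gave a p of 0.2, the smallest it can give.

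None of the 10 NF-kB and IkB genes passed the test. By limma 0 of the 10 had an adjusted p under 0.05, where 0% of all genes tested were called, and by edgeR 0 of the 10, where 0.133% were called. DESeq2 and limma-voom called 0 of the 10 as well, where they called 0.266% and 0.0938% of genes. At an unadjusted p under 0.05 the count was 0 of 10 by limma, where 9.34% of all genes lay below that value, and 0 of 10 by edgeR, where 9.73% did. Adjusted p-values of the 10 genes ran from 0.561 to 0.984 by limma. In FPKM, the difference between group means was smaller in each of the 10 genes than the wider range of libraries within 1 group. For Rela this held only narrowly, at 6.27 against 6.30 FPKM. It did not hold for Rela in log2(FPKM + 1). There its difference was 0.1133, while its siCXCR4 libraries lay between -0.0195 and 0.0915 around the mean of all libraries. All 10 log2 fold changes lay above 0, between 0.01 and 0.12 with a median of 0.04, beside a median of 0.01 over all genes tested, of which 56.4% lay above 0. That shared direction held on some scales and not on others. All 10 lay above 0 after median scaling (median 0.03) and with a pseudocount of 0.1 (median 0.04). By edgeR, DESeq2 or limma-voom 8 of 10 did (median 0.02 by each), and after quantile normalization 7 of 10 (median 0.02). The median over all genes tested moved too. It was -0.006 by edgeR, -0.004 by DESeq2 and -0.007 by limma-voom. After median scaling it was 0.010, with a pseudocount of 0.1 it was 0.017, and after quantile normalization it was 0.009. Reads outside the listed genes made up 2.80% and 2.15% of the FPKM denominator in siNC, and 0.00033%, 0.312% and 1.37% in siCXCR4. The part of this denominator in the shared direction was not tested.

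**Figure D1:**
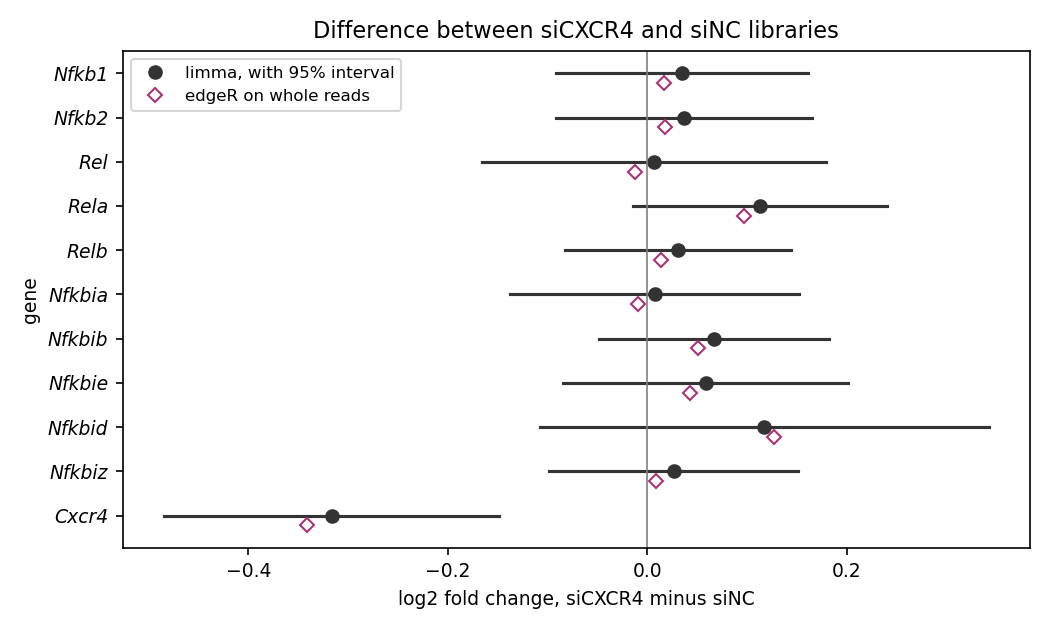
Log2 fold change of each gene, siCXCR4 minus siNC, by limma on log2(FPKM + 1) with its 95% interval, not adjusted for the number of genes (filled points and lines) and by edgeR on whole reads (open diamonds), from 2 siNC and 3 siCXCR4 libraries. The intervals of all 10 NF-kB and IkB genes include 0, while that of Cxcr4 (-0.48 to -0.15) does not.

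The same intervals, each for a single gene, show how large a change the spread between these libraries still allows on the FPKM scale. That spread may be technical, so the intervals set no limit for other cultures or animals. No gene of the family had a lower bound below -0.17 on the log2 scale. The upper bounds reached 0.34 for Nfkbid and at most 0.24 for the other 9 genes. The interval of Cxcr4 ran from -0.48 to -0.15.

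Among the subunits, Rela came closest to a difference. Rela encodes p65, the subunit that carries the main transactivation domain of the classical p50-p65 dimer. It lies on the plus strand of chromosome 19 at 5637483 to 5648130 (GRCm38, as all positions here). Its values, like those of every gene, are given per gene and not per transcript. The deposited length was 2716 bases for Rela and 3289 for Nfkb2, where the combined GENCODE exons have 3072 and 4584. Rela was at 75.9 and 74.6 FPKM in siNC and at 82.6, 77.9 and 84.2 FPKM in siCXCR4. All 3 siCXCR4 values lay above both siNC values, with siCXCR4 replicate 2 nearest to them. The group means were 75.3 ± 0.939 and 81.5 ± 3.28 FPKM, a log2 fold change of 0.11 (SE 0.0534, 95% interval -0.01 to 0.24, adjusted p = 0.561 by limma). Without siCXCR4 replicate 2 the log2 fold change was 0.15, with an unadjusted p of 0.0256 and an adjusted p of 0.289 by limma. In that setting 1405 of all 9962 genes tested had an unadjusted p under 0.05 by limma. Since the library left out there was the one nearest to siNC, a larger Rela difference was fixed in advance. Without siCXCR4 replicate 1 or 3 the log2 fold change was 0.10 or 0.09, with an unadjusted p of 0.167 or 0.170 by limma. Without siNC replicate 1 or 2 it was 0.13 or 0.10. Over 20 alternative settings the log2 fold change of Rela stayed between 0.07 and 0.15. Its adjusted p stayed between 0.188 (limma, with the copied library counted) and 0.9998 (DESeq2).

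Nfkb1, the precursor of the DNA-binding subunit p50 (chromosome 3, 135584655 to 135691547, minus strand), was at 29.7 and 27.5 FPKM in siNC and at 28.9, 29.9 and 29.1 FPKM in siCXCR4. The groups overlapped, and siNC replicate 1 was higher than 2 of the 3 siCXCR4 libraries. Its log2 fold change was 0.03 (95% interval -0.09 to 0.16). Nfkb2, the precursor of p52 in the alternative pathway (chromosome 19, 46304737 to 46312090, plus strand), was at 211 and 198 FPKM in siNC and at 210, 214 and 205 FPKM in siCXCR4. Here too siNC replicate 2 was the lowest and siCXCR4 replicate 2 the highest library, and the log2 fold change was 0.04 (95% interval -0.09 to 0.16). The Nfkb2 locus overlaps Psd on the opposite strand, which averaged 1348 reads against 13924 for Nfkb2. Whether reads were assigned by strand is not stated in the sources used here.

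Relb, the partner of p52 (chromosome 7, 19606217 to 19629438, minus strand), varied least of the family, with a pooled within-group coefficient of variation of 1.85%. Counting alone gives about 2.34% for its reads, so the lower value does not show that Relb was unusually stable. Relb was at 22.8 and 22.7 FPKM in siNC and at 23.8, 23.1 and 22.8 FPKM in siCXCR4. The groups did not overlap as deposited, but the gap between the highest siNC and the lowest siCXCR4 library was 0.0374 FPKM, and the groups overlapped after median scaling. Rel (chromosome 11, 23736847 to 23770970, minus strand) encodes c-Rel, a subunit tied to interleukin-12 and interleukin-23 genes in macrophages. It was at 7.86 and 9.16 FPKM in siNC and at 8.53, 8.82 and 8.27 FPKM in siCXCR4. Both extremes of Rel were siNC libraries, so the siCXCR4 values lay inside the siNC range. Its log2 fold change was 0.01 (95% interval -0.17 to 0.18).

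**Figure D2:**
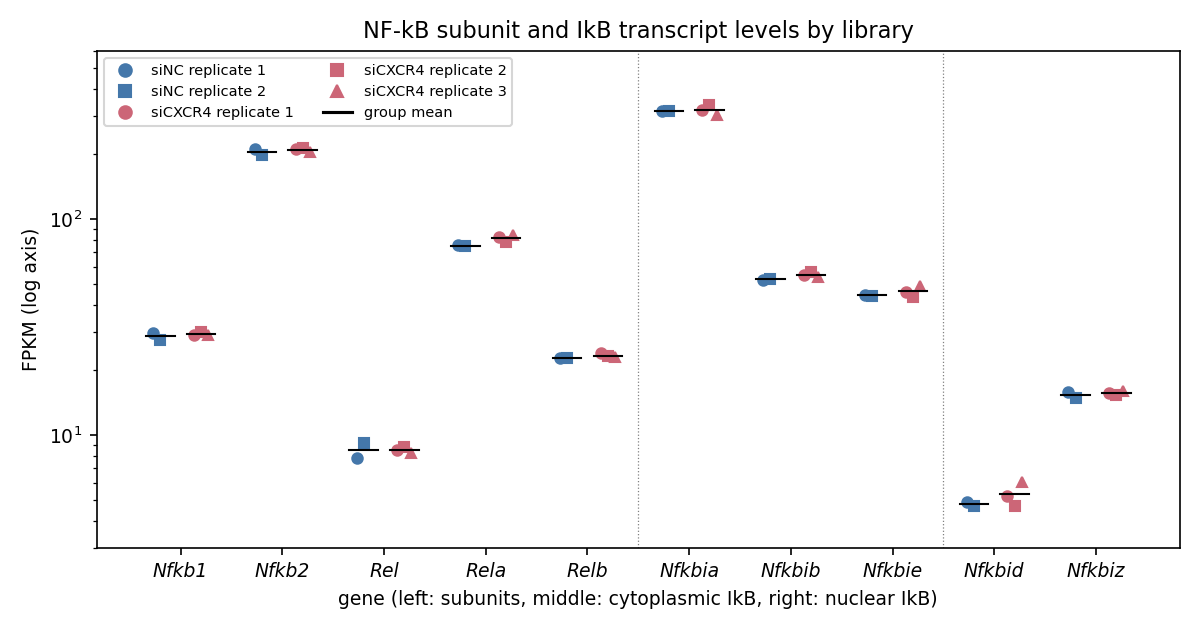
FPKM (log axis) of the 10 genes in each of the 5 distinct libraries, with symbols for replicates, colours for groups and bars for group means. The libraries of a gene lie close together compared with the steps between genes, from about 318 FPKM for Nfkbia to 5.11 FPKM for Nfkbid as means of 5 libraries.

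Of the cytoplasmic inhibitors, Nfkbia was the most abundant. It encodes IkB alpha, which is degraded within minutes of TLR4 signalling and resynthesized under NF-kB control. Its locus is chromosome 12, 55489410 to 55492647, minus strand. It was at 317 and 316 FPKM in siNC and at 320, 335 and 301 FPKM in siCXCR4. The siNC libraries lay almost together, and the siCXCR4 libraries lay on both sides of them. The group means of 317 ± 0.485 and 319 ± 16.8 FPKM gave a log2 fold change of 0.01 (SE 0.0608, 95% interval -0.14 to 0.15, adjusted p = 0.981 by limma).

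Nfkbib, which encodes IkB beta (chromosome 7, 28758251 to 28767512, minus strand), was at 52.1 and 52.7 FPKM in siNC and at 54.7, 56.6 and 53.6 FPKM in siCXCR4. All siCXCR4 values were above the siNC values, by at least 0.946 FPKM. The log2 fold change was 0.07 (95% interval -0.05 to 0.18, adjusted p = 0.680 by limma). Nfkbib overlaps Sirt2 on the opposite strand, and Sirt2 averaged 2047 reads against 2388 for Nfkbib. Nfkbie, which encodes IkB epsilon, a slower inducible inhibitor (chromosome 17, 45555703 to 45563169, plus strand), was at 44.4 and 44.0 FPKM in siNC and at 45.9, 43.6 and 48.9 FPKM in siCXCR4. The groups overlapped because siCXCR4 replicate 2 was the lowest library and replicate 3 the highest, with a log2 fold change of 0.06 (95% interval -0.08 to 0.20).

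The nuclear IkB genes were the less abundant ones. Nfkbiz (chromosome 16, 55811375 to 55838899, minus strand) encodes IkB zeta, a coactivator needed for secondary response genes such as Lcn2 and Il6. It was at 15.8 and 14.8 FPKM in siNC and at 15.6, 15.3 and 15.9 FPKM in siCXCR4, with overlapping groups and a log2 fold change of 0.03 (95% interval -0.10 to 0.15). Nfkbid (chromosome 7, 30421732 to 30428746, plus strand) encodes IkB NS, which restrains Il6 and promotes Il10 expression. It was at 4.91 and 4.69 FPKM in siNC and at 5.23, 4.68 and 6.03 FPKM in siCXCR4. The siCXCR4 libraries held both the lowest and the highest Nfkbid value. The log2 fold change of 0.12 (SE 0.0944, adjusted p = 0.708 by limma) had the widest interval of the family, -0.11 to 0.34. Nfkbid rested on 213 to 271 reads per library, so that counting alone gives a coefficient of variation of about 6.40%, and the pooled within-group value was 11%.

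Across the family, the groups did not overlap in 3 genes, Rela, Relb and Nfkbib, all with siCXCR4 above siNC. Over all genes tested, groups did not overlap in 27.8%, with siCXCR4 above in 17.9% and below in 9.92%. The share of 3 in 10 was near that background. After median scaling, or with TMM-scaled CPM, the count was 2 (Rela and Nfkbib).

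Libraries of 1 group differed among themselves as much as the groups did, and in different genes. In siCXCR4 replicate 3, Nfkbid lay 0.21 and Nfkbie 0.11 above the 5-library mean on the log2(FPKM + 1) scale, while Nfkbia lay 0.08 below it. In siCXCR4 replicate 2 this was turned round, with Nfkbid at -0.10, Nfkbie at -0.05 and Nfkbia at 0.08. These libraries differed by 0.13 (root mean square over the 10 genes), more than siCXCR4 replicates 1 and 2 (0.07) or both siNC libraries from each other (0.08). The siNC replicate 2 library held the lowest value of 5 of the 10 genes, and it also held the lowest value of 24.2% of all genes tested, the largest such share of the 5 libraries.

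**Figure D3:**
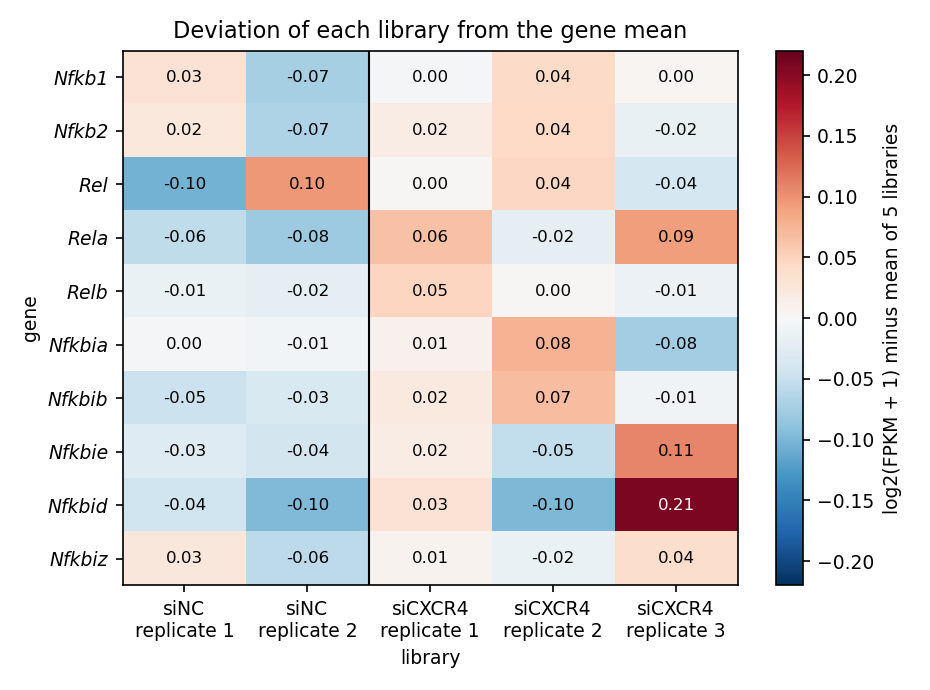
Deviation of each library from the mean of the 5 libraries, gene by gene, in log2(FPKM + 1), with red above and blue below the mean and the siNC libraries left of the black line. Nfkbid ranges from -0.10 to 0.21 within siCXCR4, and Rel from -0.10 to 0.10 within siNC.

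The balance of inhibitor and subunit transcripts differed between the groups by less than this spread. The 3 cytoplasmic IkB genes together reached 413 ± 0.354 FPKM for siNC and 420 ± 15.6 FPKM for siCXCR4, with overlapping values. The 5 subunits together reached 339 ± 10.7 and 352 ± 2.32 FPKM. Their sums were 347 and 332 FPKM in siNC and 353, 353 and 349 FPKM in siCXCR4, so these groups lay apart, by less than the range within siNC. The ratio of cytoplasmic IkB to subunit transcripts was 1.22 ± 0.0374 in siNC and 1.19 ± 0.0379 in siCXCR4, with overlapping values. For the classical inhibitor and its main partner, the ratio of Nfkbia to Rela was 4.17 and 4.24 in siNC and 3.87, 4.30 and 3.58 in siCXCR4. The lowest and the highest of these ratios were both from siCXCR4 libraries. Nfkb2 per Nfkb1 transcript was 7.14 ± 0.0625 in siNC and 7.15 ± 0.101 in siCXCR4, a ratio within 7.05 to 7.25 in all 5 libraries, although the level of each gene varied by 1.08 to 1.09-fold. These ratios use the gene lengths of the deposited FPKM.

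The order of levels depended on which gene length was used. By deposited FPKM, as means of all 5 libraries, the order was Nfkbia (318), Nfkb2 (207), Rela (79.0), Nfkbib (53.9), Nfkbie (45.4), Nfkb1 (29.0), Relb (23.1), Nfkbiz (15.5), Rel (8.53) and Nfkbid (5.11), and the ranges of neighbours over the libraries did not overlap. Among the 9943 genes tested, Nfkbia stood at place 126, Nfkb2 at place 214 and Nfkbid at place 5774. The length of Nfkb1 in the tables was 12061 bases, the combined exons of its 10 annotated transcripts, while its principal GENCODE transcript, the messenger RNA chosen as the main coding form, has 4117 bases in 25 exons. Using the principal length keeps the reads as they were, as if all of them came from that transcript, which was not tested. With the principal transcript as length, Nfkb1 moved from place 6 to place 3, at 85.0 in place of 29.0 FPKM, a factor of 2.93. It then lay above Rela (79.0) in all 5 libraries, though their ranges overlapped, and Nfkb1 per Rela transcript was 1.01 to 1.14 in place of 0.345 to 0.390. Nfkb2 per Nfkb1 transcript was 2.52 to 2.59 in place of 7.05 to 7.25. Relb was raised by a factor of 1.76 to 40.6, and Nfkbib (56.8) and Nfkbie (56.7) could then not be told apart. The ratio of cytoplasmic IkB to subunit transcripts fell to 1.03 ± 0.0336 in siNC and 1.01 ± 0.0283 in siCXCR4. The length is the same in every library, so this choice leaves the ratio between groups for a single gene as it was. This choice of length was made after the data were seen.

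**Figure D4:**
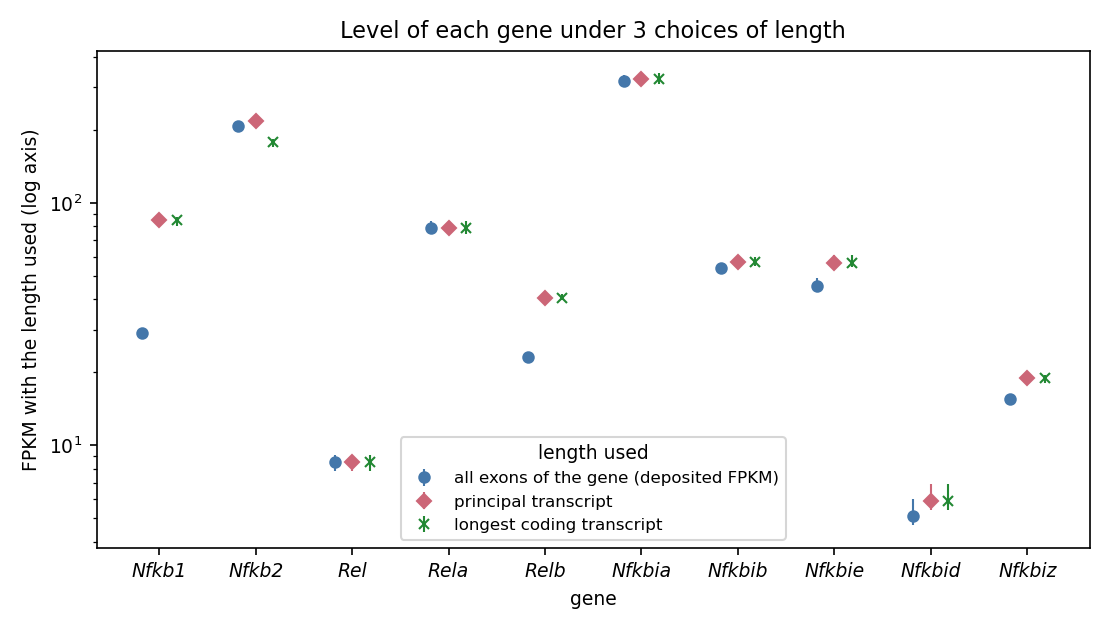
FPKM of each gene (log axis), as mean and range of 5 libraries, with 3 choices of gene length. For the same reads, Nfkb1 moves from 29.0 to 85.0 and Relb from 23.1 to 40.6 when the principal transcript is used, while Rel and Rela stay at their values.

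The rest of the pathway was read from lists that stand outside the family. Of 24 tested genes of the activating kinases and adaptors, 0 passed the limma test, 15 lay above 0 and the median log2 fold change was 0.04. At an unadjusted p under 0.05 by limma there was 1 higher and 0 lower, and edgeR called 0. Of all 9943 genes tested, 577 were higher and 352 lower at that value, and 56.4% lay above 0. The highest was Ripk1, a kinase adaptor below TNF receptors and TLRs, at 11.3 ± 0.266 and 12.5 ± 0.0376 FPKM (log2 fold change 0.14, adjusted p = 0.504 by limma). Tab2, a ubiquitin-binding adaptor of the kinase TAK1, was at 27.7 ± 0.911 and 30.1 ± 0.897 FPKM, and Rbx1, a subunit of the ubiquitin ligase that acts on IkB, at 9.59 ± 0.517 and 8.55 ± 0.480 FPKM. The most abundant, Tbk1, an IkB kinase relative that activates IRF3, was at 55.7 ± 0.529 and 57.2 ± 2.13 FPKM. Ube2v1 was below the filter.

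Among 13 tested genes of other IkB-like proteins and Rel cofactors, 0 passed by limma or edgeR, 8 lay above 0 and the median was 0.01. At an unadjusted p under 0.05 by limma, 1 was higher and 0 lower, beside 577 and 352 of all 9943 genes tested. Bcl3, the nuclear IkB relative that binds p50 and p52 dimers, was at 39.6 and 39.1 FPKM in siNC and at 47.6, 40.2 and 47.2 FPKM in siCXCR4. As in Rela, siCXCR4 replicate 2 lay next to the siNC libraries and the other siCXCR4 libraries lay above. The log2 fold change of Bcl3 was 0.18 (SE 0.0799, adjusted p = 0.538 by limma and 0.427 by edgeR). Akirin2, a nuclear cofactor that links IkB zeta to chromatin remodelling, was at 14.1 ± 0.115 and 15.8 ± 0.641 FPKM (log2 fold change 0.15, adjusted p = 0.512 by limma). Pdlim2, a ubiquitin ligase for nuclear p65, was at 2.21 ± 0.0852 and 1.87 ± 0.278 FPKM. Ankrd42 was below the filter.

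Target genes with well-known kB sites did not share a direction. Of 34 tested, 14 lay above 0, where 56.4% of all genes did. The median was -0.01 and 0 passed by limma or edgeR. At an unadjusted p under 0.05 by limma, 3 were higher and 3 lower, beside 577 and 352 of all 9943 genes tested. Gadd45b, a stress sensor that limits JNK signalling, was at 258 ± 0.792 and 290 ± 7.68 FPKM, and Junb, an AP-1 subunit, at 186 ± 3.08 and 209 ± 7.0 FPKM. Il1b lay the other way, at 2083 ± 129 and 1626 ± 210 FPKM, with a log2 fold change of -0.36 (SE 0.113, adjusted p = 0.494 by limma). The most abundant, the chemokine Ccl5, was at 3964 ± 86.8 and 3950 ± 233 FPKM. Of the 6 tested targets tied to Nfkbiz or Nfkbid, 4 lay above 0 and 0 passed by limma or edgeR, and 1 was higher and 0 lower at unadjusted p under 0.05. Some of these are also among the kB-site genes. Il10, the anti-inflammatory cytokine, was at 17.1 and 19.01 FPKM in siNC and at 24.0, 22.4 and 21.2 FPKM in siCXCR4, with groups that did not overlap (log2 fold change 0.30, SE 0.0724, adjusted p = 0.457 by limma and 0.230 by edgeR). The other named targets were Ccl2 at 31.0 ± 1.39 and 34.1 ± 2.36 FPKM, Edn1 at 14.8 ± 0.587 and 15.9 ± 0.844 FPKM, and Il12b at 124 ± 20.5 and 114 ± 22.2 FPKM.

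**Figure D5:**
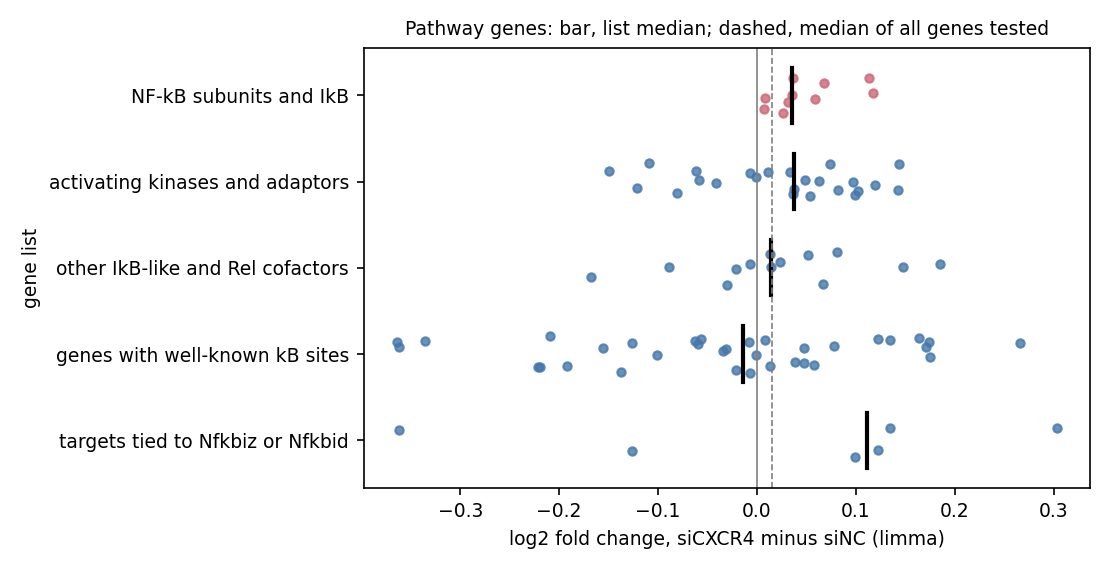
Log2 fold change by limma of each tested gene, siCXCR4 minus siNC, for the 10 NF-kB and IkB genes (top) and 4 pathway lists, with bars for list medians and a dashed line at the median of all genes tested (0.01). The family lies between 0.01 and 0.12, while the kB-site genes reach from -0.36 to 0.27.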

How the data were processed

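Gene tables of 6 samples (3 labelled siNC, 3 labelled siCXCR4) were used. The values the authors deposited in 5 tables were taken as FPKM, since multiplying them by gene length gave whole reads after division by 1 constant per library (within 0.05 of a read for 100% of values above 0, so that whole reads could be recovered). In the table of siNC replicate 3 the authors deposited whole read counts, which repeat siNC replicate 2 and were left out. No aligner, counting tool or strand setting is stated in the sources used here. The submitters' processing notes name mm9, but 98.3% of 54409 shared genes have the position of GENCODE (GRCm38). The gene positions given are those the authors deposited. Within the NF-kB and IkB family, only the position of Nfkb2 differs from that of GENCODE.

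The comparison used limma 3.58.1 (R 4.3.3; trend, robust) on log2(FPKM + 1) of genes whose mean was at least 1 FPKM, with an adjusted p threshold of 0.05. EdgeR 4.0.16 (TMM, quasi-likelihood), DESeq2 1.42.0 and limma-voom on the recovered whole reads (12794 genes) were alternatives, with other filters, pseudocounts and scalings, the copy as a replicate, a replicate block and each library left out. Both main tests were tested on simulated data. Where several rows shared a symbol, the row with the highest mean was kept.

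The genes named are the 10 members, Cxcr4, and of each pathway list the 3 of lowest p and the most abundant, with the most abundant marker of the macrophage list; the members, lists and tests were chosen with earlier results of these data known. The NF-kB consensus and the transcript lengths were added later. Precision stated from read numbers is that of counting alone, since no molecular identifiers are named and reads may repeat molecules.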

Additional observations from a re-analysis of the deposited data

How the results depend on the processing

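None of the 10 genes was called under any of 20 alternative settings, and the lowest adjusted p of any of them was 0.188 (Rela, with the copied library counted as a siNC replicate). The number of genes called over all genes did vary, from 0 by limma to 17 by edgeR, 34 by DESeq2 and 12 by limma-voom, to 6 by limma with the copied library counted, to 2 by limma without siCXCR4 replicate 2, and by edgeR to 312 without siCXCR4 replicate 2, 20 without siNC replicate 2, 5 without siNC replicate 1, 3 without siCXCR4 replicate 3 and 0 without siCXCR4 replicate 1. Of 200 log2 fold changes of the 10 genes under alternatives, 171 kept the direction of the reported value and 29 turned it, none of them called. A changed filter cannot alter the log2 fold change of a gene, and the replicate block repeats the values without siCXCR4 replicate 3. Part of the 171 was therefore fixed in advance, and the settings are not independent. Rela, Nfkbib and Nfkbid kept their direction in all 20. Rel was at -0.013 by edgeR, -0.010 by DESeq2, -0.0075 by limma-voom, -0.00038 after quantile normalization and -0.026 with the copied library counted. Nfkbia was at -0.0094 by edgeR, -0.0069 by DESeq2, -0.011 by limma-voom and -0.032 after quantile normalization, where Relb was at -0.00092. With 1 library left out (limma and edgeR), the log2 fold change ran from -0.12 to 0.11 for Rel, -0.045 to 0.047 for Nfkbia, -0.033 to 0.087 for Nfkb1, -0.023 to 0.082 for Nfkb2, -0.031 to 0.068 for Nfkbiz, -0.0027 to 0.043 for Relb and -0.0012 to 0.097 for Nfkbie. Single values that turned within these ranges were, by limma, -0.092 for Rel without siNC replicate 1, -0.029 for Nfkbia and -0.014 for Rel without siCXCR4 replicate 2, and -0.018 for Nfkb1, -0.0085 for Nfkb2 and -0.015 for Nfkbiz without siNC replicate 2. By edgeR they were -0.0083 and -0.0073 for Nfkbia without siNC replicates 1 and 2, -0.011 for both Rel and Nfkbia without siCXCR4 replicate 1, -0.035 for Rel without siCXCR4 replicate 2 and -0.0068 for Nfkbiz without siCXCR4 replicate 3. The cause of these turns was not tested. Cxcr4 stayed lower throughout, from -0.40 to -0.27 with 1 library left out. It passed the threshold by DESeq2 (-0.34, adjusted p = 0.0496) and by edgeR without siCXCR4 replicate 2 (adjusted p = 0.00104). Its adjusted p reached 0.866 without siNC replicate 1. With the replicate number as a block, 0 of the 10 genes were called, Rela was at 0.090 (adjusted p = 0.928 by limma) and Cxcr4 at -0.30. Replicate 3 stands there as a siCXCR4 library only, so it adds nothing to these estimates. They rest on replicates 1 and 2 of each group and equal those without siCXCR4 replicate 3. Deviations of same-numbered libraries from their group means had correlations of -0.04 and -0.11. The deviations of both siNC libraries mirror each other by construction, and replicate 3 has no distinct siNC partner. This check therefore cannot decide whether the numbers pair the libraries. Nfkbid, on 213 to 271 reads, is the gene whose precision the depth limits most.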
